A study of Mus musculus with 8 samples.

Results

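The mitochondrial ribosomal protein genes were taken as every gene whose symbol starts with Mrpl or Mrps followed by a number, on probe sets that the platform annotation assigns to a single gene. This gave 156 probe sets of 76 genes among 45037 probe sets besides controls. Of these, 153 probe sets, still covering all 76 genes, passed the filter on dim signal (4 or more of the 8 arrays at a log2 value of 4 or above), among 41409 probe sets and 17389 genes that passed in the whole table. The 3 that did not pass were a secondary probe set each of Mrpl41, Mrps26 and Mrpl47. The genes were compared between SThdh111/111 cells, with 4 samples, and SThdh7/7 cells, with 4 samples. Both are mouse striatal lines from embryos of Huntingtin knock-in mice, conditionally immortalised with an SV40 large T antigen, and the number in each name stands for the glutamine stretch encoded by both Htt alleles. The line with 111 models Huntington's disease and the line with 7 is its control. Each genotype is represented by 1 line, so genotype and any other difference between the lines cannot be told apart. Nothing in the labels tells whether each sample is a culture of its own, so the spread behind the p-values may be technical.

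The mitochondrial ribosome translates the few proteins that mitochondrial DNA encodes, all of them core subunits of the respiratory chain and of ATP synthase. Its RNAs are made inside the organelle, but every one of its proteins is encoded in the nucleus, made in the cytosol and imported. Some of these proteins descend from bacterial ribosomal proteins, and others were added in the mitochondrial lineage and have no bacterial counterpart. NRF1, the ETS factor GABPA and YY1 are known to act at promoters of many nuclear genes for mitochondrial proteins.

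The promoters of 6 genes that differ between the lines are shown here because they carry these factors' motifs and belong to genes that differ in opposite directions, 3 higher and 3 lower in SThdh111/111 cells. Each runs 5′ to 3′ on the gene's own strand, from 130 bases before the transcription start to 30 bases from it on, in RefSeq assembly GRCm38.p6. Capitals mark the motifs searched on both strands, which were GCGCA and GCGC around any 1 base for NRF1, CCGGAAG for the ETS core and AANATGGCG for YY1. The genes higher in SThdh111/111 cells are Mrpl27 (chr11:94653661-94653820, plus strand), Mrpl51 (chr6:125192070-125192229, plus strand) and Mrps21 (chr3:95871485-95871644, minus strand).
Mrpl27: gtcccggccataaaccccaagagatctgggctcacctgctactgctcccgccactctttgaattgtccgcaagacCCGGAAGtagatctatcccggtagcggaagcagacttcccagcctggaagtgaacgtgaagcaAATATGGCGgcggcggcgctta
Mrpl51: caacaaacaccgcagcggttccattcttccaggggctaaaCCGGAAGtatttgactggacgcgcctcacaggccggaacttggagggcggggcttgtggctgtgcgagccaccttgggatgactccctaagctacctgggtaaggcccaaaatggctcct
Mrps21: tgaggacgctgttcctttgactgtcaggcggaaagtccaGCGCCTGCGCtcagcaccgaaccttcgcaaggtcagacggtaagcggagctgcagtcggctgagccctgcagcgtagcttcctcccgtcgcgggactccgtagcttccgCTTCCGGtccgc
The genes lower in SThdh111/111 cells are Mrpl45 (chr11:97315586-97315745, plus strand), Mrpl57 (chr14:57826109-57826268, plus strand) and Mrpl39 (chr16:84735215-84735374, minus strand).
Mrpl45: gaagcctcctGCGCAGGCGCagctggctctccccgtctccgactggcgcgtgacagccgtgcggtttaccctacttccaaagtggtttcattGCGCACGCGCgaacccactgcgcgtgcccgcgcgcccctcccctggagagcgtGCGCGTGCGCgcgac
Mrpl57: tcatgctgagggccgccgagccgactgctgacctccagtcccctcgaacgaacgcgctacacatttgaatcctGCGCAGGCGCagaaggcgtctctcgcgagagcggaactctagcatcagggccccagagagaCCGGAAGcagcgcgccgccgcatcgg
Mrpl39: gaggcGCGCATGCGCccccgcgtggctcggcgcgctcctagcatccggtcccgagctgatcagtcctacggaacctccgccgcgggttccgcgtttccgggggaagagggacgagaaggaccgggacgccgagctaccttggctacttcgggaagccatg
Mrpl27 and Mrpl51 hold the ETS core before the start, and Mrpl27 also the YY1 letters just after it. Mrps21 and Mrpl57 hold both the NRF1 motif and the ETS core, Mrpl39 the NRF1 motif alone, and Mrpl45 has 3 NRF1 motifs in these 160 bases.

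RefSeq promoters were found for 67 of the 76 genes, 73 promoters in all, and were searched from 250 bases before the start to 50 after it. The ETS core was in 25 of these 73 promoters (34.2%), against 8.86% of all 32851 promoters in the table. The NRF1 motif was in 12 (16.4%), against 4.6% of all promoters, and the YY1 motif in 11 (15.1%), against 2.38%. At least 1 of these motifs was in 40 promoters (54.8%), against 14.2% of all promoters, and no matches of different motifs overlapped. The CCAAT box was about as frequent in the member promoters as in all of them (39.7% against 37.4%), and the median GC content was 58.7% against 52.7%. Among the promoters of members called higher in SThdh111/111 cells, 5 of 8 held the ETS core, 1 the NRF1 motif and 2 the YY1 motif. Among the promoters of members called lower, 1 of 13 held the ETS core, 4 the NRF1 motif and 0 the YY1 motif. Of the 52 promoters of members that were not called, 19 held the ETS core, 7 the NRF1 motif and 9 the YY1 motif. A match describes the letters in this window and was not tested as a binding site, nor was the difference in these counts tested.

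The arrays of SThdh7/7 samples 1 and 2 were set off from the rest, with median intensities of 173.9 and 174, against 136.2 to 147 on the SThdh111/111 arrays and 137.7 and 139.7 on the remaining SThdh7/7 arrays. Values are log2 of the authors' intensities, used both as deposited and after quantile normalization, since this gap is in the deposited values. Across all probe sets the arrays correlated at 0.922 to 0.924 within SThdh111/111, at 0.906 to 0.927 within SThdh7/7 and at 0.866 to 0.885 between the lines. Of the striatal projection neuron markers, 8 of 10 were measured, with 2 above the floor on all SThdh111/111 arrays and 1 on all SThdh7/7 arrays. The defining markers Drd1 and Ppp1r1b were below the floor on all 8 arrays, as were 3 of 5 microglial markers (Aif1, Itgam and Ptprc). The floor is the intensity of bacterial control probe sets (95th percentile, 130 on the highest array). That percentile was 126.6, 130, 98.65 and 105.1 in SThdh7/7 samples 1 to 4, against 72.05 to 77.53 on the SThdh111/111 arrays. It was thus higher on every SThdh7/7 array, not on samples 1 and 2 alone. The floor comes from SThdh7/7 sample 2 and was used for both lines. Htt itself was at 8.71 ± 0.30 in SThdh111/111 cells and 9.13 ± 0.18 in SThdh7/7 cells (log2, SD, n = 4; adjusted p = 0.0837). A knock-in of the glutamine stretch does not fix the Htt level, so this does not check the labels.

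The mitochondrial ribosomal protein genes did not move together between the lines. As deposited, 10 of 76 genes were called higher in SThdh111/111 cells and 14 lower (a two-sided limma test, adjusted p under 0.05 over all kept probe sets), which is 31.6% of the members, against 29.0% of all genes tested (13.1% called higher and 15.9% lower). Each gene is represented by its brightest probe set, and all 76 of these lay above the floor on all 8 arrays. Their mean log2 intensities ran between 9.15 and 12.96. Among the 6930 genes with a mean log2 intensity of at least 9, a limit chosen after the data were seen, 49.7% were called (23.5% higher and 26.2% lower). After quantile normalization 11 members were called higher and 13 lower, against 28.7% of all genes (13.4% higher and 15.3% lower) and 49.9% of the bright ones (22.4% higher and 27.5% lower). Of the members, 10 were called higher and 13 lower in both scalings. With each array centred on its own median in place of either scaling, 15 were called higher and 6 lower. That is 27.6% of the members, against 22% of all genes. Total RNA from a culture does not tell fewer cells of a kind from less RNA per cell.

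The median of the group was nearly level between the lines. The median over the 76 genes was 10.72, 10.77, 10.75 and 10.76 in SThdh111/111 samples 1 to 4, against 10.70, 10.71, 10.80 and 10.72 in SThdh7/7 samples 1 to 4 (log2 intensity as deposited). These medians overlap between the lines. The median difference, SThdh111/111 minus SThdh7/7, was -0.04 as deposited and -0.04 after quantile normalization, against -0.09 and -0.02 over all genes and -0.02 and -0.03 over the bright genes. Centring on array medians shifted every set upwards, to a median difference of 0.11 for the members, 0.06 for all genes and 0.13 for the bright genes. Between individual genes the differences spread from -0.74 to 0.55, with 32 above 0 and 44 below. The median size of a member's difference, whatever its sign, was 0.18, against 0.38 over all genes and 0.29 over the bright genes. The middle 50% of members lay between -0.21 and 0.15, against -0.31 and 0.27 for the bright genes.

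No member reached a 2-fold difference by its brightest probe set. Called differences of 2-fold or more made up 10.2% of all genes and 10.6% of the bright genes as deposited, 9.95% and 10.6% after quantile normalization, and 0 of the 76 members in either scaling. The 95% interval of the difference lay within 1 log2 unit of 0 for all 76 members. For 50 of the 52 members that were not called it lay within 0.5 of 0, and the widest bounds among the 52 were -0.56 and 0.51. Replicates were close, with a median SD per gene of 0.10 in SThdh111/111 and 0.13 in SThdh7/7. The values of both lines did not overlap for 25 of the 76 members as deposited, 22 of them called, against 31.6% of all genes, and for 26 after quantile normalization, against 31.4%. The shares over all genes include dim ones, and the share among the bright genes is not given here. Whether the members differ from other genes in any of these measures was not tested.

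**Figure D1:**
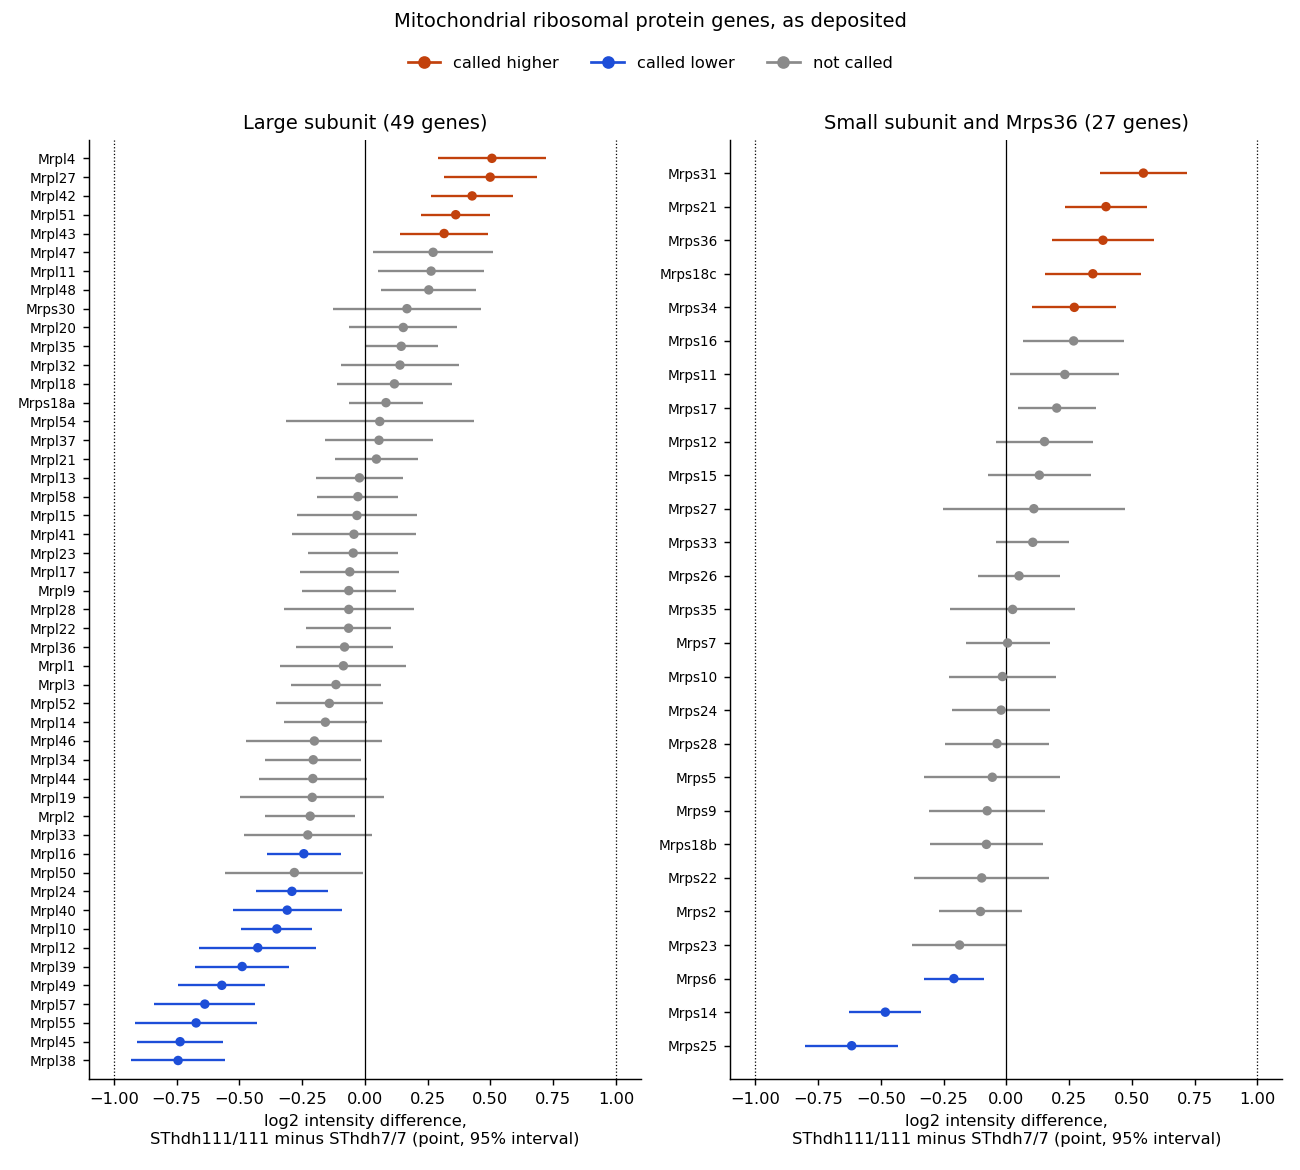
Fitted log2 intensity difference, SThdh111/111 minus SThdh7/7, as deposited, for the 49 large-subunit genes (left) and the 26 small-subunit genes with Mrps36 (right). Points are fitted differences, lines are 95% intervals, colours mark calls at an adjusted p under 0.05 and dotted lines mark 2-fold; all intervals stay inside those lines, with 10 genes called higher and 14 called lower.

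Of the genes called higher in SThdh111/111 cells, Mrps31, a small-subunit protein with no bacterial counterpart, had the largest difference. Its log2 intensity was 10.61, 10.58, 10.69 and 10.66 in SThdh111/111 samples 1 to 4, against 9.97, 10.22, 10.13 and 10.03 in SThdh7/7 samples 1 to 4. Every SThdh111/111 sample was above every SThdh7/7 sample. The difference was 0.55 ± 0.08 (SE; 1.46-fold; adjusted p = 1.79e-04). Mrpl4, a large-subunit protein at the exit tunnel, was at 10.92, 10.76, 10.70 and 10.88 in SThdh111/111, against 10.33, 10.46, 10.41 and 10.03 in SThdh7/7. The lines did not overlap, and SThdh7/7 sample 4 was the lowest. The difference was 0.51 ± 0.10 (1.42-fold; adjusted p = 0.00199).

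Mrpl27, the homologue of bacterial L27, which lies close to the site of peptide bond formation, was at 12.19, 12.17, 12.18 and 12.27 in SThdh111/111, against 11.45, 11.78, 11.90 and 11.67 in SThdh7/7. The SThdh111/111 samples were nearly equal, and all lay above the more scattered SThdh7/7 samples. Its difference was 0.50 ± 0.09 (1.41-fold; adjusted p = 6.35e-04), and a second, dimmer probe set was also called higher, by 0.96 (adjusted p = 0.0124). Mrpl42, a mitochondria-specific protein of the large subunit, was at 11.12, 11.03, 11.08 and 10.98 in SThdh111/111, against 10.75, 10.59, 10.66 and 10.50 in SThdh7/7, with no overlap. It was 0.43 ± 0.08 higher (adjusted p = 8.17e-04). Mrps21, a small-subunit protein of the bacterial bS21 family, was at 11.32, 11.49, 11.63 and 11.47 in SThdh111/111, against 11.15, 11.09, 11.05 and 11.02 in SThdh7/7. SThdh111/111 sample 1 lay nearest to SThdh7/7, and the lines did not overlap. It was 0.40 ± 0.08 higher (adjusted p = 0.0014).

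The other called rises were smaller. Mrpl51, a mitochondria-specific large-subunit protein, was at 12.61, 12.58, 12.67 and 12.73 in SThdh111/111, against 12.18, 12.25, 12.39 and 12.31 in SThdh7/7, without overlap. It rose by 0.36 ± 0.06 as deposited and by 0.25 after quantile normalization (adjusted p = 8.08e-04 and 0.00327). This probe set is of a class that can match several transcripts, and the brightest of its others differed by 0.28 and was not called (adjusted p = 0.565). Mrps18c is 1 of 3 homologues of bacterial S18 in the mitochondrial ribosome, and the one that rose, by 0.34 ± 0.09 (adjusted p = 0.0113). Mrps18b differed by -0.08 (95% interval -0.31 to 0.15) and Mrps18a, which despite its name sits in the large subunit, by 0.08 (-0.06 to 0.23). Whether these homologues differ from each other was not tested. Mrps36, now known as a component of the 2-oxoglutarate dehydrogenase complex and counted here in neither subunit, rose by 0.39 ± 0.09 (adjusted p = 0.0088). Without SThdh7/7 samples 1 and 2, Mrps18c was 0.20 higher and Mrps36 0.26 higher, and neither was called (adjusted p = 0.093 and 0.0772), nor was either called when the fit had no intensity trend (adjusted p = 0.099 and 0.0758). Mrpl43 rose by 0.32 and Mrps34 by 0.27 (adjusted p = 0.0118 and 0.0214). Neither was called without an intensity trend (adjusted p = 0.108 and 0.133) or without SThdh7/7 samples 1 and 2 (0.105 and 0.114), and Mrps34 was also lost without SThdh111/111 sample 2 or 4 or SThdh7/7 sample 2 or 4 (adjusted p = 0.0506, 0.0632, 0.0559 and 0.0567).

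Of the genes called lower, Mrpl45, the protein that anchors the large subunit to the inner membrane beside the tunnel exit, had the lowest adjusted p. It was at 10.78, 10.85, 10.86 and 10.74 in SThdh111/111 samples 1 to 4, against 11.39, 11.46, 11.68 and 11.64 in SThdh7/7 samples 1 to 4. The gap between the lines was wider than the range within either. The difference was -0.74 ± 0.08 (1.67-fold lower; adjusted p = 9.53e-06). Mrpl38, a mitochondria-specific protein of the central protuberance, was at 9.78, 9.66, 9.69 and 9.67 in SThdh111/111, against 10.51, 10.58, 10.39 and 10.30 in SThdh7/7. It did not overlap between the lines by this probe set, which differed by -0.74 ± 0.09 (adjusted p = 2.19e-05). The name of that probe set ends in _s_at, a class that can match several transcripts, and the other Mrpl38 probe set above the floor on all arrays differed by -0.14 (adjusted p = 0.731).

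Mrpl55, a large-subunit protein counted here in neither class of origin, was at 9.07, 9.11, 9.33 and 9.49 in SThdh111/111, against 9.83, 9.91, 10.01 and 9.93 in SThdh7/7. The SThdh111/111 samples were the more scattered and all lay lower, by 0.67 ± 0.11 on average (adjusted p = 4.9e-04). Mrpl57, once named Mrp63, was at 10.79, 10.87, 10.93 and 10.79 in SThdh111/111, against 11.22, 11.64, 11.63 and 11.43 in SThdh7/7, again without overlap. It fell by 0.64 ± 0.09 (adjusted p = 1.61e-04). Mrps25, a mitochondria-specific small-subunit protein, was at 9.85, 9.85, 9.85 and 10.09 in SThdh111/111, against 10.44, 10.60, 10.57 and 10.50 in SThdh7/7. Only SThdh111/111 sample 4 departed from its group, and it stayed below all SThdh7/7 samples. It fell by 0.62 ± 0.09 (adjusted p = 1.08e-04).

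Mrpl49 was at 9.91, 10.03, 10.15 and 9.98 in SThdh111/111, against 10.65, 10.57, 10.60 and 10.53 in SThdh7/7. It was lower in every SThdh111/111 sample, with a difference of -0.57 ± 0.08 (adjusted p = 1.16e-04), and its other probe set was called lower too, at -0.65. Mrpl39, a large-subunit protein related to threonyl-tRNA synthetase, was at 11.09, 11.07, 10.97 and 11.18 in SThdh111/111, against 11.53, 11.55, 11.79 and 11.39 in SThdh7/7. The lines did not overlap, the difference was -0.49 ± 0.09 (adjusted p = 7.8e-04), and a second probe set at -0.37 was also called. Mrps14, the homologue of bacterial S14 in the small-subunit head, was at 11.25, 11.29, 11.38 and 11.38 in SThdh111/111, against 11.73, 11.86, 11.89 and 11.75 in SThdh7/7. Again all SThdh111/111 samples lay lower, with a difference of -0.48 ± 0.07 (adjusted p = 9.48e-05). With arrays centred on their medians Mrpl39 differed by -0.34 and Mrps14 by -0.33, and neither was called (adjusted p = 0.13 and 0.0877).

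The remaining called falls include the base and the arm of the flexible stalk of the large subunit, where translation factors dock. Mrpl12, the stalk protein, which has also been reported to bind the mitochondrial RNA polymerase, fell by 0.43 (adjusted p = 0.0103), with values that overlapped between the lines. Mrpl10, which holds the stalk to the body, fell by 0.35 (adjusted p = 0.0012). Mrpl24 and Mrpl16, both of bacterial type, fell by 0.29 and 0.24. With arrays centred on their medians none of these 4 genes was called. The centred differences were -0.27 for Mrpl12, -0.20 for Mrpl10, -0.14 for Mrpl24 and -0.09 for Mrpl16 (adjusted p = 0.314, 0.341, 0.586 and 0.665). Without an intensity trend Mrpl10 alone of the 4 was called, and without SThdh111/111 sample 3, SThdh7/7 sample 2 or both SThdh7/7 samples 1 and 2 Mrpl16 was not (adjusted p = 0.0599, 0.0525 and 0.106). Mrps6 fell by 0.21 as deposited (adjusted p = 0.0144) and by 0.34 after quantile normalization, the largest change of a member between these scalings. With centred arrays it differed by -0.06 and was not called (adjusted p = 0.846), and without SThdh111/111 sample 3 its adjusted p was 0.0507. Mrpl40 was called as deposited alone, at 10.21, 10.28, 10.47 and 10.32 in SThdh111/111, against 10.72, 10.74, 10.34 and 10.72 in SThdh7/7. SThdh7/7 sample 3 fell among the SThdh111/111 values, and the call (adjusted p = 0.0416) was not made after quantile normalization (adjusted p = 0.0569). Mrpl48 was called after quantile normalization alone, 0.29 higher (adjusted p = 0.0309), against 0.25 as deposited (adjusted p = 0.0544).

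**Figure D2:**
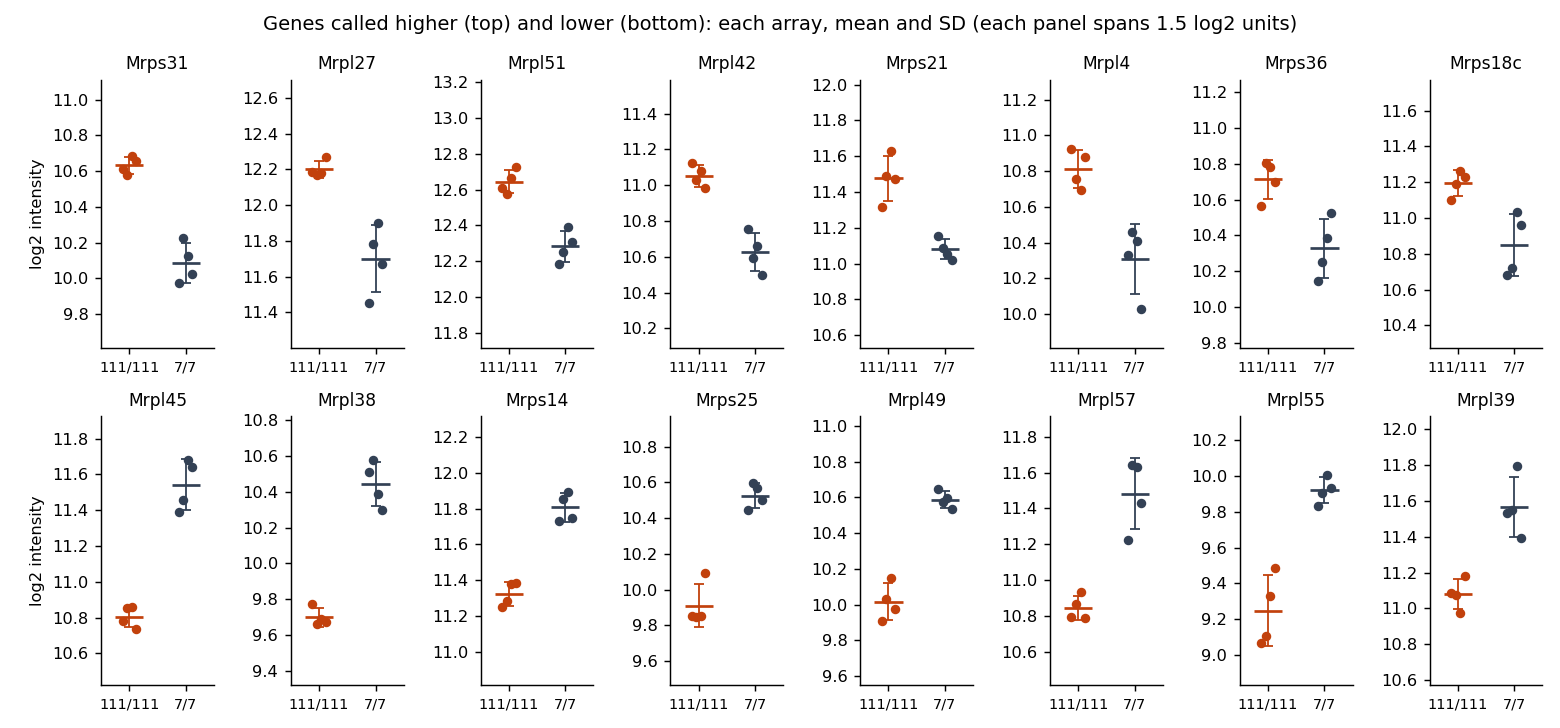
Log2 intensity as deposited in each array for the 8 members called higher (top row) and the 8 called lower (bottom row) with the lowest adjusted p, with SThdh111/111 left and SThdh7/7 right in each panel. Points are arrays, horizontal lines are means and bars are SDs (n = 4); the lines do not overlap for any of the 16 genes.

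By subunit, 5 of 49 large-subunit genes were called higher and 11 lower, with a median difference of -0.06. Of 26 small-subunit genes 4 were called higher (Mrps31, Mrps21, Mrps18c and Mrps34) and 3 lower (Mrps25, Mrps14 and Mrps6), with a median of 0.02. After quantile normalization the counts were 6 and 10 for the large subunit and 4 and 3 for the small subunit, and with centred arrays 8 and 5 for the large subunit and 6 and 1 for the small. By origin, 12 of 30 genes classed as mitochondria-specific were called (40%, with 5 higher and 7 lower). This was against 10 of 44 genes classed as having a bacterial counterpart (22.7%, with 4 higher and 6 lower). The called shares by subunit were 32.7% for the large and 26.9% for the small. Of all genes 29.0% were called as deposited, and of the bright genes 49.7% (23.5% higher and 26.2% lower). All members are bright in this sense, and no class or subunit exceeded that share. After quantile normalization 28.7% of all genes and 49.9% of the bright genes were called. Mrps18a and Mrps18b, which were not called, are counted as mitochondria-specific here although they are homologues of bacterial S18. The medians of both classes were -0.04. With centred arrays 6 mitochondria-specific genes were called higher and 5 lower, with a median of 0.12, against 8 higher and 0 lower of the genes with a bacterial counterpart, with a median of 0.11. With centred arrays 22% of all genes were called. Neither their split by direction nor the share among the bright genes is given here for that scaling. The difference between these classes of origin was not tested. Mrps30, which sits in the large subunit like Mrps18a, differed by 0.17 (95% interval -0.13 to 0.46).

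Other genes of the mitochondrial translation apparatus were read from lists. Of all genes 29.0% were called as deposited (13.1% higher and 15.9% lower), 28.7% after quantile normalization and 22% with centred arrays. Whether the shares called in the lists differ from these was not tested. Of 4 mitoribosomal proteins with other names, Chchd1 fell by 0.48 and Ptcd3 by 0.37 (adjusted p = 0.00276 and 0.0298), and 0 rose. With centred arrays neither was called (adjusted p = 0.177 and 0.368). Of 12 translation factors, 2 rose and 2 fell (33.3% called), with a median of -0.04. Mtif2, the initiation factor that brings the starting tRNA to the ribosome, was at 9.72 ± 0.03 in SThdh111/111 and 10.37 ± 0.03 in SThdh7/7 (SD, n = 4 each). It fell by 0.65 (adjusted p = 2.37e-05), and Gfm1, the elongation factor for translocation, fell by 0.54. Slirp, which binds mitochondrial mRNAs, rose by 0.47 (adjusted p = 0.00106) and Mrrf, the recycling factor, by 0.29. The Gfm1 call rests on a probe set of a class that can match several transcripts, and its brightest probe set outside this class differed by -0.29 (adjusted p = 0.546). Mrrf was not called without an intensity trend or without SThdh111/111 sample 4 (adjusted p = 0.104 and 0.0526). With centred arrays the list again had 2 called higher and 2 lower.

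Of 23 assembly factors 0 rose and 3 fell (13% called, against 29.0% of all genes), with a median of 0.01. After quantile normalization the median was 0.09. Mettl15 and Mrm1, both methyltransferases of mitochondrial ribosomal RNA, fell by 1.02 and 1.17, and the GTPase Mtg1 by 0.43. Mettl15 was at 8.77 ± 0.07 in SThdh111/111 and 9.78 ± 0.11 in SThdh7/7 (adjusted p = 6.67e-06). That probe set can match several transcripts, and the brightest Mettl15 probe set outside this class differed by -0.25 (adjusted p = 0.648). Of 16 mitochondrial tRNA synthetases, Cars2 rose by 0.36 and Tars2, Iars2 and Lars2 fell by 0.70, 0.60 and 0.88, with a median of -0.18. Of 8 genes for transcription and replication of mitochondrial DNA, Tfb2m, the initiation factor of the mitochondrial polymerase, fell by 1.13 (adjusted p = 7.92e-06) and Tfam, which packages the DNA, by 0.28. Called were 25% of the synthetases and 25% of the genes for mitochondrial DNA. With centred arrays 0 assembly factors were called higher and 2 lower, 1 tRNA synthetase higher and 2 lower, and 0 genes for mitochondrial DNA higher and 1 lower. The calls lost were those of Mtg1, Iars2 and Tfam (adjusted p = 0.165, 0.0835 and 0.629). Without SThdh7/7 samples 1 and 2 Lars2 differed by -0.61 and Cars2 by 0.35, and neither was called (adjusted p = 0.163 and 0.0691). Calls were also lost on leaving out single samples, for Ptcd3 SThdh111/111 sample 2, 3 or 4 or SThdh7/7 sample 1 or 3 (adjusted p of 0.0529 to 0.0908) and for Cars2 SThdh111/111 sample 1, 2 or 3 or SThdh7/7 sample 2 or 3 (0.0672 to 0.0868). The Tfam call was lost without SThdh111/111 sample 1 or 2 or SThdh7/7 sample 3 or 4 (0.0513 to 0.0875), and the Lars2 call without SThdh7/7 sample 1 (0.0564). Without an intensity trend Chchd1, Ptcd3, Cars2 and Tfam were not called (adjusted p = 0.0529, 0.115, 0.072 and 0.125). Cars2 was not called with a block on the sample numbers (adjusted p = 0.0685), nor Ptcd3 without SThdh7/7 samples 1 and 2 (0.0567). None of the called genes in these lists went the other way after quantile normalization.

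**Figure D3:**
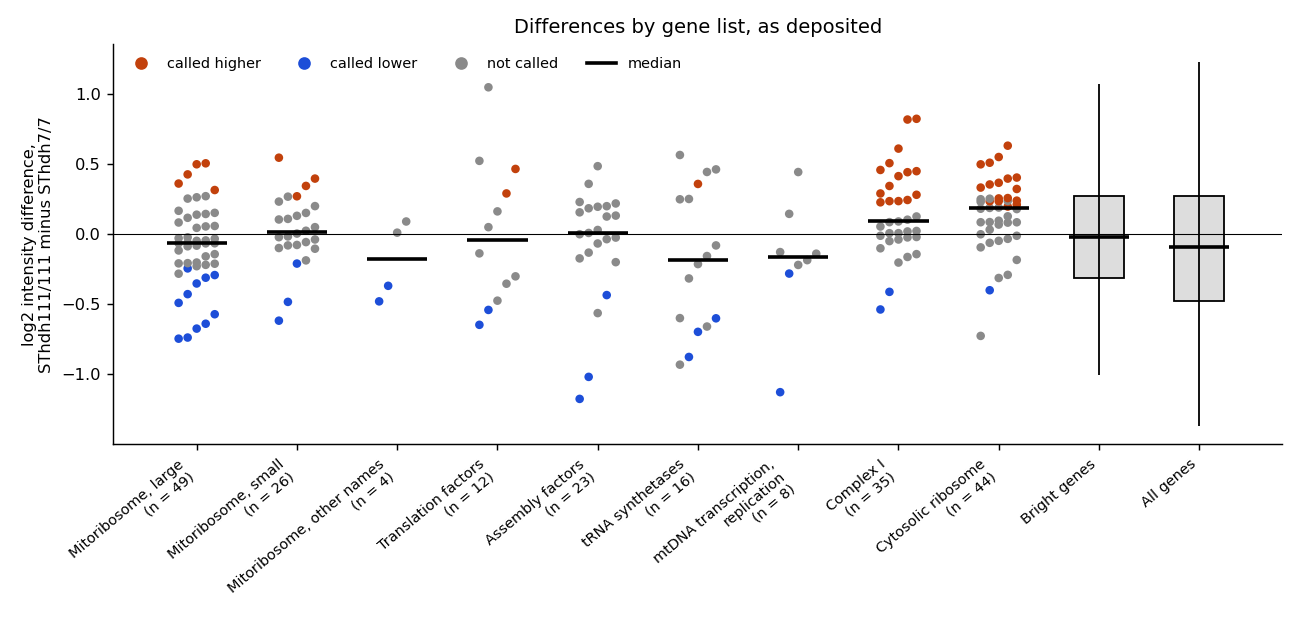
Log2 intensity difference, SThdh111/111 minus SThdh7/7, as deposited, 1 point per gene, by gene list, with the list's median as a line. The boxes at the right give the 5th, 25th, 50th, 75th and 95th percentiles of all genes with a mean log2 of at least 9 and of all genes; the median of the large subunit is -0.06 and that of the small subunit 0.02.

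Gene families near to the members in function were read in the same scalings. Of 35 complex I subunit genes 15 were called higher and 2 lower as deposited, with a median of 0.09, and 10 higher and 4 lower after quantile normalization, with a median of -0.01. Of 44 cytosolic ribosomal protein genes 17 were called higher and 1 lower as deposited, with a median of 0.19, and 6 higher and 6 lower after quantile normalization. With centred arrays the counts were 12 higher and 0 lower for complex I and 8 and 0 for the cytosolic ribosome. As deposited 48.6% of complex I and 40.9% of cytosolic ribosomal genes were called, against 29.0% of all genes and 49.7% of the bright genes. Of the bright genes 23.5% were called higher and 26.2% lower. After quantile normalization these 4 shares were 40%, 27.3%, 28.7% and 49.9%. With centred arrays 22% of all genes were called, and their split by direction is not given here. The median difference was then 0.06 for all genes and 0.13 for the bright genes. For the 76 mitochondrial ribosomal protein genes the differences in the deposited and the quantile-normalized values correlated at 0.991 across genes, which are not independent replicates. The change between the scalings ran between -0.14 and 0.05, and 2 members, neither of them called, changed sign. The difference between the families was not tested.

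**Figure D4:**
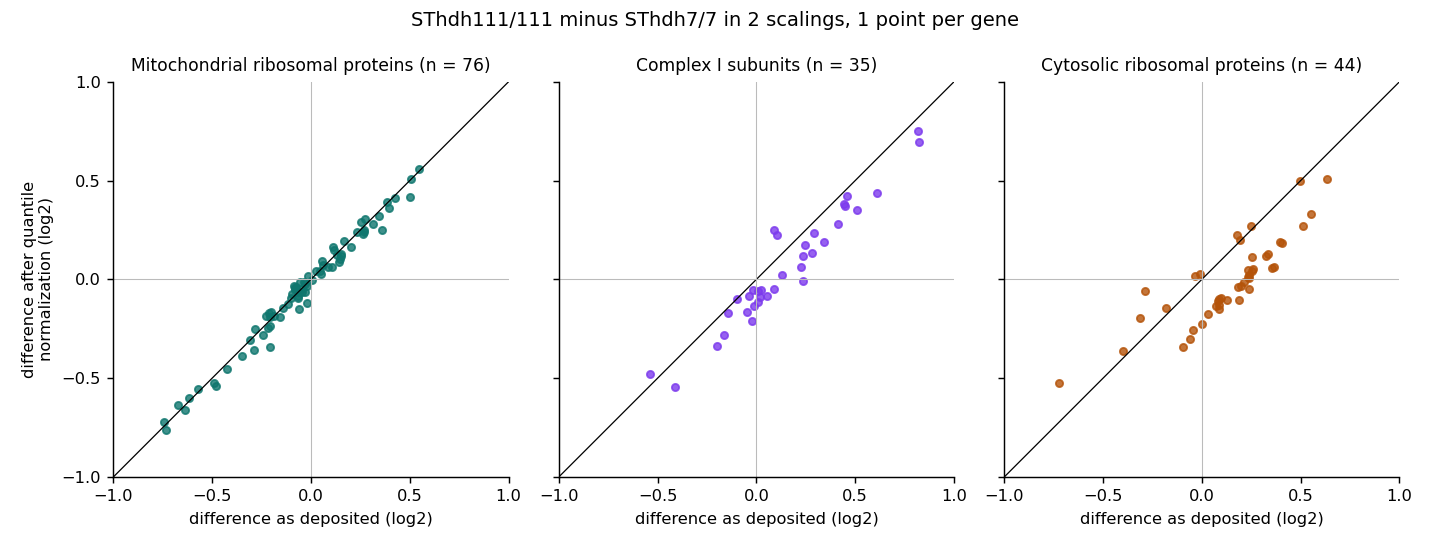
Log2 difference, SThdh111/111 minus SThdh7/7, as deposited (horizontal) against that after quantile normalization (vertical), 1 point per gene, for the 76 mitochondrial ribosomal proteins, 35 complex I subunits and 44 cytosolic ribosomal proteins. The diagonal marks equal values; the median of the cytosolic ribosomal proteins is 0.19 on the horizontal axis and -0.00 on the vertical one, while that of the members is -0.04 on both.

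Probe sets of 1 gene did not always give the same difference. At the level of probe sets, 13 of 153 were called higher and 23 lower as deposited (23.5%, against 22.4% of all probe sets, 9.87% higher and 12.6% lower), and 14 and 20 after quantile normalization (22.2%, against 21.8% of all probe sets, 10.1% higher and 11.7% lower). With centred arrays they were 18 and 8, and the share over all probe sets is not given here for that scaling. Among the 32 genes with more than 1 probe set above the floor on all arrays, 20 had differences of 1 sign, none had calls in opposite directions, and the median range was 0.25. The widest range, 1.2, belonged to Mrps5, a small-subunit protein. Its brightest probe set differed by -0.06, while another was at 8.88, 8.75, 8.58 and 8.49 in SThdh111/111, against 7.80, 7.39, 7.36 and 7.82 in SThdh7/7, and was called higher by 1.09 (adjusted p = 6.48e-04). The lines did not overlap on that probe set. Of the large-subunit gene Mrpl52, the brightest probe set was not called at -0.14 (adjusted p = 0.371), and the next, by -0.76 and -0.53, were both called lower.

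Among the called genes described by sample, Mrps31, Mrpl42, Mrps21, Mrpl51 and Mrps25 each had a dim probe set of opposite sign that was not called. It differed by -0.56 for Mrps31 (adjusted p = 0.215), with 1 SThdh111/111 array and 4 SThdh7/7 arrays above the floor. For Mrps25 it differed by 0.07, and a further probe set, above the floor on all arrays, by -0.44 without being called (adjusted p = 0.169). Those of Mrpl42, Mrps21 and Mrpl51 were not above the floor on all arrays of either line.

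Mrpl15, a bacterial-type large-subunit protein, had 8 kept probe sets. Its brightest differed by -0.03, and one called lower was at 9.64, 10.79, 10.04 and 9.58 in SThdh111/111, against 10.55, 11.26, 11.03 and 10.81 in SThdh7/7. These values overlap, and the difference was -0.90 (adjusted p = 0.00995). A dim Mrpl15 probe set called higher had 1 of 8 arrays above the floor, and a dim Mrpl21 probe set called lower had 3, so neither gives a measured fold. With that of Mrps5 these were the 3 member probe sets called at 2-fold or more, against 8.69% of all probe sets as deposited and 8.44% after quantile normalization. The platform annotation does not say which transcript each probe set reads.

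By position, the members lay on 17 chromosomes, and 71 of them on 14 chromosomes with at least 3 members. Chromosome 11 held 11 members, 1 called higher (Mrpl27) and 5 lower, with a median difference of -0.19. All bright genes of that chromosome had a median of -0.09, with 19.3% called higher and 31.9% lower. On chromosome 16 all 3 members (Mrpl39, Mrpl40 and Mrps6) were called lower as deposited, with a median of -0.31, where the bright genes had a median of -0.21 and 41.8% were called lower. Chromosome 17 held 8 members, 1 of them called higher and 0 lower, with a median of -0.04, where the bright genes had a median of 0.09 with 31.8% called higher and 17% lower. Over the 14 chromosomes the members' medians and the bright genes' medians had a Pearson correlation of 0.551 and a Spearman correlation of 0.447, given as a description of 14 points from the same 8 arrays.

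**Figure D5:**
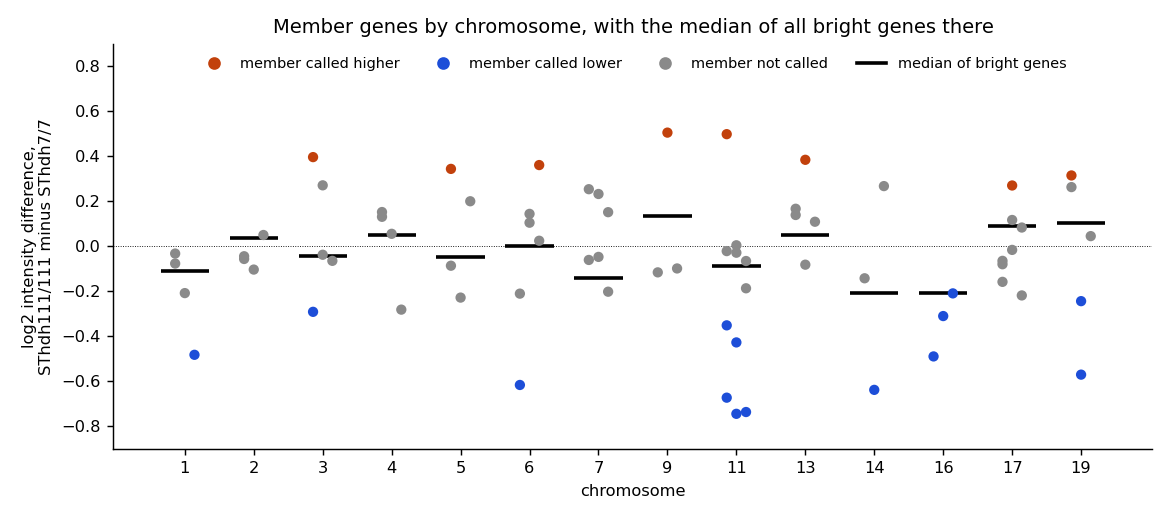
Log2 intensity difference, SThdh111/111 minus SThdh7/7, as deposited, of the members on each chromosome with at least 3 of them, coloured by call. The black line is the median of all genes of that chromosome with a mean log2 of at least 9; all 3 members on chromosome 16 are called lower, where that median is -0.21.

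Markers of cell types and of cell division differed between the lines as well. Of 8 measured striatal projection neuron markers Penk was called higher, by 2.96, and Rgs9 lower, at -0.71. Of 5 neural progenitor markers Dlx2 was called higher, by 1.86, and Sox2 and Nes lower, at -2.06 and -1.38. Of 5 astrocyte markers Slc1a3 was called higher, by 1.82, and Aldh1l1 lower, at -2.47. In SThdh7/7 cells Penk and Dlx2 were above the floor on 1 array each and Slc1a3 on 2, so these rises do not give measured folds. Pdgfra of the oligodendrocyte lineage was called higher, by 1.09, as was the microglial marker Csf1r, by 0.49, and no endothelial marker was called. All 4 measured proliferation markers were called lower in SThdh111/111 cells. Mean log2 intensities were 7.43 for Mki67, 9.08 for Top2a, 9.81 for Mcm5 and 13.07 for Pcna in SThdh111/111, against 9.12 for Mki67, 10.83 for Top2a, 11.80 for Mcm5 and 14.04 for Pcna in SThdh7/7. The part of these in the differences of the mitochondrial ribosomal protein genes was not tested. Actb differed by -0.05 as deposited (95% interval -0.19 to 0.10). After quantile normalization it differed by -0.13 (-0.23 to -0.03), without overlap between the lines, and was not called (adjusted p = 0.0652).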

How the data were processed

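The starting material was total RNA from 8 samples, the label was biotin and the arrays were Affymetrix mouse arrays, per the labels' protocols. Groups were read from the sample titles. The deposited values are 1 linear intensity per probe set and array. GCRMA is the only tool in the submitters' processing notes, without a version, but the mean of the deposited intensities, trimmed by 2% at each end, was 500 on every array, a form of MAS5 or GCOS signals, which leaves the authors' tool unknown. Log2 differences of dim probe sets are imprecise in values of that form.

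After removal of 64 control probe sets, log2 intensities were kept where at least 4 on at least 4 of 8 arrays. Gene names came from the platform's gene table, in which 34945 probe sets had 1 gene, 932 several and 9160 none. The brightest probe set stood for each gene. Differences (SThdh111/111 minus SThdh7/7) were fitted over all 41409 kept probe sets by a two-sided limma 3.58.1 test under R 4.3.3 (lmFit, then eBayes with its trend option), adjusted after Benjamini and Hochberg, with calls at an adjusted p under 0.05, as deposited and after quantile normalization. The fit was tested on simulated data. The number of arrays limits the precision.

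The floor came from 27 bacterial control probe sets. The members, gene lists and tests were chosen with earlier results of these data known, and lists are described by counts and medians alone. The genes chosen by rule were the 8 called higher and 8 called lower in both scalings with the lowest adjusted p. With them came those called in 1 scaling alone, those with discordant probe sets, and the 3 brightest and 3 dimmest. Mrps18a, Mrps18b, Mrps18c, Mrps30 and Mrps36, the leading called genes of the other lists, Htt and Actb were also chosen. Of the genes chosen by rule, Mrps27, Ndufa6, Ndufc2, Rps19 and Rps25 are not described singly here. The other called members, the other called genes of the apparatus lists and the markers were named after their values were seen. Same-numbered samples of the lines deviated together by correlations of -0.0144 to 0.00903. No pairing by number was visible, though such values cannot show that the samples were not handled in pairs. Promoters were searched with Python 3.11.15, and figures drawn with matplotlib 3.10.9.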

Additional observations from a re-analysis of the deposited data

Results flagged for a closer look

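Over 84 groups of 4 samples, the groups of both lines for each gene chosen by rule, 3 held a sample far from the other 3. The gap was above Dixon's 95% critical value. Chance alone flags about 1 in 20 groups. Mrps25 in SThdh111/111 sample 4 was at 10.09, with the other SThdh111/111 samples at 9.848 to 9.851. Mrpl40 in SThdh7/7 sample 3 was at 10.34, with the other SThdh7/7 samples at 10.72 to 10.74, and this is the sample that overlaps SThdh111/111. Htt in SThdh111/111 sample 4 was at 8.264, with the other SThdh111/111 samples at 8.81 to 8.904.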

How the results depend on the processing

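Of the 16 members with the lowest adjusted p (8 higher and 8 lower), 10 kept their call and direction in every alternative run gene by gene, 18 at most, which leaves out the average over probe sets: Mrps31, Mrpl27, Mrpl42, Mrps21, Mrpl4, Mrpl45, Mrps25, Mrpl49, Mrpl57 and Mrpl55. For Mrpl49 and Mrpl55 leaving out probe sets that can match several transcripts left no value. Mrpl40 lost its call in 12 of 18 alternatives, 6 of them the removal of SThdh111/111 sample 1, 2 or 4 or SThdh7/7 sample 1, 2 or 4. Of all 24 called members 8 lost their calls with centred arrays, 9 without an intensity trend and 6 without SThdh7/7 samples 1 and 2. No intensity trend left 6 genes called higher and 9 lower as deposited and 4 higher after quantile normalization, and 8 probe sets called higher as deposited and 6 after quantile normalization. In both scalings 19.7% of member genes were then called, against 21.3% of all genes as deposited and 21.4% after quantile normalization. With the filter on dim signal at a log2 value of 8, 38.2% of members and 51.7% of all genes were called as deposited. After quantile normalization these shares were 36.8% and 51.5%. Centring arrays on their medians left 6 genes and 8 probe sets called lower and a median difference of 0.11. Without _x_at, _s_at and _a_at probe sets, 11 probe sets were called lower as deposited and 10 after quantile normalization, and Mrpl38 and Mrpl51 lost their calls. That run left 62 member genes with a value, and the number of member probe sets left is not given here. Of these genes 30.6% were called in both scalings, against 25.8% of all genes as deposited and 25.5% after quantile normalization. With probe sets averaged per gene, 6 genes were called higher after quantile normalization, and without SThdh7/7 samples 1 and 2, 7 genes. Called in either direction with averaging were 21.1% of members after quantile normalization, against 24.8% of all genes. Without those 2 samples 26.3% of members were called as deposited, against 27.6% of all genes, and 27.6% after quantile normalization, against 27.8%. Leaving out each sample in turn gave 9 to 12 genes called higher and 12 to 14 lower as deposited, 9 to 12 and 13 to 15 after quantile normalization, and median differences of -0.059 to -0.0062 as deposited and -0.052 to 0.0027 after quantile normalization. In these runs 28.9% to 32.9% of members were called in both scalings. Of all genes 25.6% to 27.8% were called as deposited and 25.3% to 27.6% after quantile normalization. With a replicate block on the sample numbers, 11 genes were called higher and 13 lower as deposited, and 10 and 13 after quantile normalization. The block left 27.6% of all genes called as deposited and 27.1% after quantile normalization, against 31.6% and 30.3% of members.

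Among the members and apparatus genes named in the text, Htt and Actb, signs turned only for genes that were not called. Of the genes called as deposited in the families compared, 1 complex I gene (Ndufa13) and 2 cytosolic ribosomal genes (Rpl7 and Rps27l) turned sign after quantile normalization. The genes not called that turned with centred arrays were Mrpl15 at 0.12, Mrpl52 at 0.011, Mrps5 at 0.097, Mrpl13 at 0.13, Mrpl1 at 0.067, Mrps18b at 0.074 and Actb at 0.11. Without probe sets that can match several transcripts they were Mrpl21 at -0.26, Mrpl1 at 0.18 and Actb at 0.25. Without SThdh7/7 samples 1 and 2 they were Mrpl21 at -0.0071, Mrps5 at 0.056, Mrpl13 at 0.0095, Mrps18b at 0.089 and Actb at 0.022. Leaving out single samples gave -0.077 to 0.035 for Mrpl13, -0.12 to 0.027 for Mrps5, -0.0049 to 0.070 for Mrpl21, -0.083 to 0.0023 for Actb and -0.11 to 0.081 for Mrpl15. The causes were not tested. Array number and, for dim probe sets, signal over background limit what can be called.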
